A study of Mus musculus with 18 samples.

Results

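Messenger RNA isoforms whose 3′ end lay more than 100 nt past the end of their reference transcript were examined in mouse myotubes. They are the isoforms that the authors' deposited tables class as extended at the 3′ end, taken from nuclear chromosomes only. The polysome table held 252 of them among 7095 nuclear isoforms (3.55%, 95% Wilson interval 3.15 to 4.01). The decay table held 261 among 6593 (3.96%, 3.51 to 4.46). Isoforms classed as annotated transcripts, 3578 in the polysome table and 3431 in the decay table, served for comparison.

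TIF-seq2, which sequences the 5′ and the 3′ end of the same RNA molecule, was run on 18 libraries of WT myotubes. Primary myoblasts from the gastrocnemius of female mice were fused within 24 h under 1 µM of the ERK inhibitor SCH772984. For polysome profiling, cells received 100 µg/ml cycloheximide for 5 min, and RNA came from heavy polysomes (6 or more ribosomes), light polysomes (2 to 5 ribosomes) and the polysome-free fraction of 2 mice. For decay, transcription was blocked with 7.5 µg/ml actinomycin D for 0, 3, 6 or 12 h in cells of 3 mice. All libraries carry the same genotype, and no age is given. Each table gives 1 pooled value per isoform, with 0 columns for a single library, so the spread between mice could not be had for any difference below. The intervals given cover counting error, or the spread over isoforms, and nothing else.

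The 3′ end of a messenger RNA is set by cleavage and polyadenylation. The cleavage machinery reads a hexamer, most often AAUAAA or AUUAAA, a short distance before the cut, together with U-rich and GU-rich elements around it. Many genes carry several such sites, and use of a distal site lengthens the 3′ UTR and adds sequence that RNA-binding proteins and microRNAs can read. Differentiating muscle is known for a shift towards longer 3′ UTRs.

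The last 30 nt of the deposited 3′ UTR are printed here for extended ends with and without AATAAA or ATTAAA. They are written as DNA, 5′ to 3′, in lower case, with AATAAA or ATTAAA in capitals, and positions are on GRCm39. Extended ends of well covered isoforms with a hexamer were these.
Cdc37 extended, chr9:21050728-21050757, minus strand: caatgtccAATAAAcagttccaggtgctgg
Coq8a extended, chr1:179994180-179994209, minus strand: gttcAATAAAgaagtgcgttggggactgcc
Ndufc1 extended, chr3:51312900-51312929, minus strand: gttaaagaAATAAAaatactcgcgctcctc
Well covered extended ends without either hexamer were these.
unnamed extended, chr7:33901555-33901584, minus strand: gcatgggggctcagcctcttcagtttactg
Timm17b extended, chrX:7773077-7773106, plus strand: atgaatgtttaaagccagttttgaaatgtc
Ucp2 extended, chr7:100148803-100148832, plus strand: agccttcacccataaagcaagctcaatgtt

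Pairs of an extended and an annotated end of the same gene fell into every combination. In Mea1 both ends carried AATAAA, 20 nt before the extended end and 25 nt before the annotated end (distance counted from the first base of the hexamer). In Smim7, a small integral membrane protein, only the extended end carried it.
Mea1 extended, chr17:46994136-46994165, plus strand: gaaaccaggaAATAAAcaggcacagcaggg
Mea1 annotated, chr17:46993998-46994027, plus strand: tggagAATAAAgcaccctgtgtacacagcc
Smim7 extended, chr8:73320790-73320819, minus strand: gccacttgttAATAAAgtgactttggggcc
Smim7 annotated, chr8:73321331-73321360, minus strand: ggttgaattgatggtgattgttttggtttg
In Tmem38a, the cation channel TRIC-A of the sarcoplasmic reticulum, and in Oaz1, the antizyme that restrains polyamine synthesis, only the annotated end carried it. In Rab11b, a small GTPase of recycling endosomes, neither end did.
Tmem38a extended, chr8:73340253-73340282, plus strand: tatatcttgtaactaaaagaatttaaagcc
Tmem38a annotated, chr8:73341092-73341121, plus strand: gagtgatcagccAATAAAtctggtgcgagt
Oaz1 extended, chr10:80664915-80664944, plus strand: actccattagcggggtgcttcttcgagctg
Oaz1 annotated, chr10:80665089-80665118, plus strand: tggctcaaatccAATAAAgtgatctcgttc
Rab11b extended, chr17:33965578-33965607, minus strand: tactaaaatgtataagccacttctgtacag
Rab11b annotated, chr17:33965662-33965691, minus strand: attctttatacactttgtaaaatttacgcc

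Extended isoforms were less covered than annotated ones. Coverage is the authors' pooled count per isoform. Its median was 22 for extended and 45 for annotated isoforms in the polysome table, and 48 for extended and 95 for annotated isoforms in the decay table. Extended isoforms took 27220 of 1600529 counts in the polysome table (1.70%, 1.68 to 1.72) and 58103 of 3117987 in the decay table (1.86%, 1.85 to 1.88). A few isoforms carried much of this: the 5 most covered held 33.1% of extended coverage in the polysome table and 27.7% in the decay table. They came from 216 distinct 3′ ends and 220 distinct 5′ ends in the polysome table, and from 243 and 227 in the decay table, so isoforms that share an end are not independent. They lay on 20 chromosomes.

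Of the extended isoforms, 115 were listed in both tables, which is 45.6% of those in the polysome table and 44.1% of those in the decay table. They held 72.2% of extended coverage in the polysome table and 69.8% in the decay table. Distinct extended 3′ ends were shared more widely: 142 were in both tables, 65.7% of the polysome table's ends and 58.4% of the decay table's. None of the isoforms listed in both tables was extended in only 1 of them. Each table starts at its own lowest coverage, 11 counts in the polysome table and 21 in the decay table.

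The label did not always describe a longer transcript than the others of the same start. Distances are the authors' own, from the end of a reference transcript that the tables do not name. In the polysome table, 118 extended isoforms shared their exact 5′ end with an annotated isoform, and 79 ended beyond every such isoform, 34 ended before all of them and 5 ended between them. In the decay table, 112 shared a 5′ end, of which 62 ended beyond, 39 before and 11 between. The other 134 in the polysome table and 149 in the decay table had no annotated isoform at their start. In 32 extended isoforms (polysome table) and 36 (decay table) the whole deposited 3′ UTR equalled the extension, so that all of it counted as extension. Cdc37, a co-chaperone that brings kinases to Hsp90, was the most covered of these, with a 3′ UTR and an extension of 1521 nt each.

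The median extension was 431 nt in the polysome table (373 to 558, n = 252) and 353 nt in the decay table (311 to 409, n = 261). The class begins just past 100 nt: the smallest extended distance was 101 nt in each table, and the largest distance of an annotated isoform was 100 nt in the polysome table and 99 nt in the decay table. The shortest at a coverage of at least 30 were Ndufc1, a subunit of respiratory complex I, at 103 nt in both tables, Oaz1 at 105 nt in both, and an unnamed isoform at chr9:64623887-64645007 at 101 nt in the decay table. Distances above 5000 nt were those of 47 isoforms in the polysome table and 26 in the decay table, and none of these came with a 3′ UTR sequence.

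**Figure D1:**
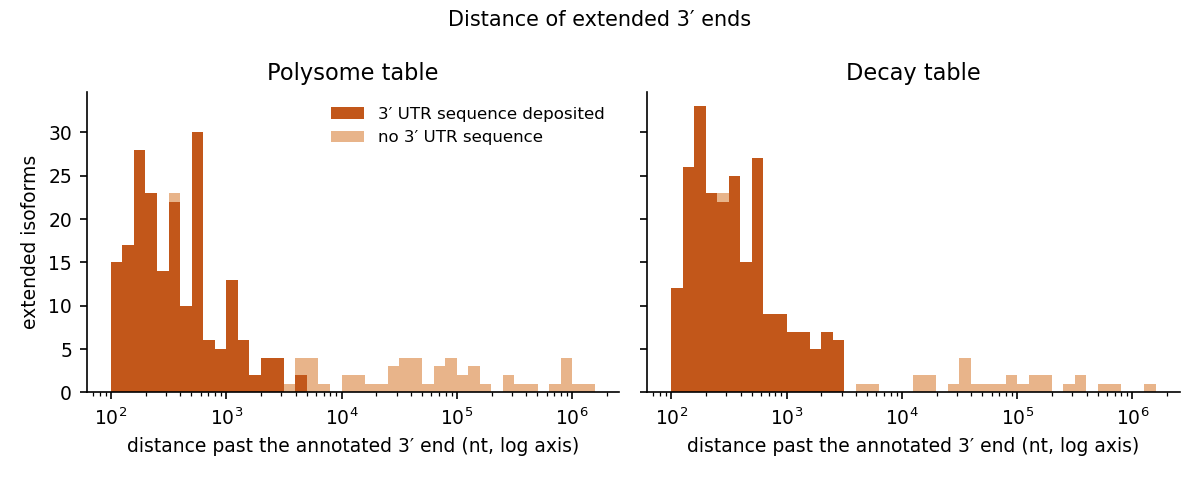
Number of extended isoforms by distance past the reference 3′ end (nt, log axis), in the polysome table (left) and the decay table (right). Bars are stacked by whether the authors deposited a 3′ UTR sequence. The reference transcript is not named and need not belong to the gene of the start. Isoforms with a sequence lie below 5000 nt, around a median of 317 nt in each table, and those without one reach 1339466 nt.

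Extended isoforms without a deposited 3′ UTR sequence numbered 51 in the polysome table and 28 in the decay table, and they stood apart from the rest. Their median distance was 48169 nt in the polysome table and 67386 nt in the decay table, against 317 nt in each table for those with a sequence. Their median genomic span from 5′ to 3′ end was 517956 nt and 487018 nt, and 37 and 21 of them spanned more than 100 kb. Of annotated isoforms, 2.29% in the polysome table and 2.83% in the decay table spanned that much. In 19 of the 51 and 10 of the 28, the span contained a whole annotated isoform of a named gene on the same strand, from another start. Its name differed from that of the extended isoform where that had a name. Where it had none, the named gene could be its own. None of their 3′ ends lay within 100 nt of an annotated 3′ end. This does not set them apart, since only 3 of 201 and 4 of 233 extended isoforms with a sequence ended that near one. The class rule places each end more than 100 nt past its own reference end, but sets no distance from the ends of other transcripts. TE was missing for all 51, and half-life was given for 25 of the 28.

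Isoforms without a sequence often started where annotated isoforms were strongly covered. In the polysome table, 39 of the 51 shared their 5′ end with annotated isoforms, whose median summed coverage there was 2676, against a median of 18 for the extended isoforms. In the decay table, 18 of the 28 did, at medians of 30.5 for extended and 4549 for annotated coverage. The longest distance in both tables was that of Des, which encodes the muscle intermediate filament desmin. From its start at chr1:75336976 an isoform ended at position 76878282, a distance of 1339466 nt, with a coverage of 184 in the polysome table and 55 in the decay table. Others from that start in the polysome table ended at 76519287 (coverage 46), 76453294 (coverage 18) and 75425197 (coverage 346). The main Des isoform of the same start ended at 75344357 with a coverage of 50264, in the class of truncated 3′ ends. Selenom, a selenoprotein of the endoplasmic reticulum, had the next longest in the polysome table at a coverage of at least 30, with a coverage of 54, a distance of 401752 nt and a span of 1992959 nt that contained 5 other named genes. Rab1b, a GTPase of transport from the endoplasmic reticulum to the Golgi, had an isoform of coverage 71 and 41 in the polysome and decay tables, with a span of 1947461 nt that contained 7 other named genes. In the decay table its distance was 99529 nt, while its end lay 1939688 nt beyond the annotated Rab1b end of that start. The distances of such long isoforms are thus not always counted from the end of the named gene. At a coverage of at least 30 the longest in the decay table after Des were an unnamed isoform on chromosome 18 (395829 nt, coverage 94) and one of LOC115487230 (371180 nt, coverage 43). Below that coverage an unnamed isoform at chr3:5815867-6609931 (793576 nt, coverage 27) and one of Atp5g3 (554647 nt, coverage 23) were longer. What gave rise to these long spans was not tested.

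A few isoforms with a 3′ UTR sequence shared the long spans: 5 in the polysome table and 8 in the decay table spanned more than 100 kb. Acta1, skeletal muscle α-actin, had one at chr8:123655451-124621490, with a span of 966040 nt and a coverage of 15 in the polysome table and 28 in the decay table. An exception among isoforms without a sequence was an unnamed one at chr8:27750375-27805206, with a distance of 38504 nt and a coverage of 479 and 699, which had no annotated isoform at its start.

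Just over 50% of extended ends carried a polyadenylation hexamer, fewer than annotated ends. AATAAA or ATTAAA was searched on the transcript strand of the deposited 3′ UTR, in its last 40 nt. In the polysome table, 109 of 201 extended isoforms with a sequence held it (54.2%, 47.3 to 61.0), against 2939 of 3567 annotated isoforms (82.4%, 81.1 to 83.6). In the decay table, 130 of 233 extended isoforms did (55.8%, 49.4 to 62.0), against 2863 of 3423 annotated ones (83.6%, 82.4 to 84.8). With 12 hexamer variants the shares were 72.6% of extended and 92.9% of annotated isoforms in the polysome table, and 75.1% and 93.7% in the decay table. Among isoforms with a coverage of at least 100 the shares were 51.2% extended and 84.6% annotated in the polysome table, and 68.1% extended and 85.7% annotated in the decay table. The extended isoform with the most coverage, at chr7:33901555-33929716 with 3612 and 5243 counts, held neither hexamer.

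Where an extended end held the hexamer, its place was that of annotated ends. The median distance from its first base to the end was 22 nt for extended (quartiles 20 and 25) and 21 nt for annotated isoforms (19 and 24) in the polysome table. For the decay table it was 22 nt for extended (19 and 24) and 21 nt for annotated isoforms (19 and 24). The last 20 nt held 32.8% A at extended and 34.1% A at annotated ends in the polysome table, and 33.3% and 34.9% in the decay table.

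**Figure D2:**
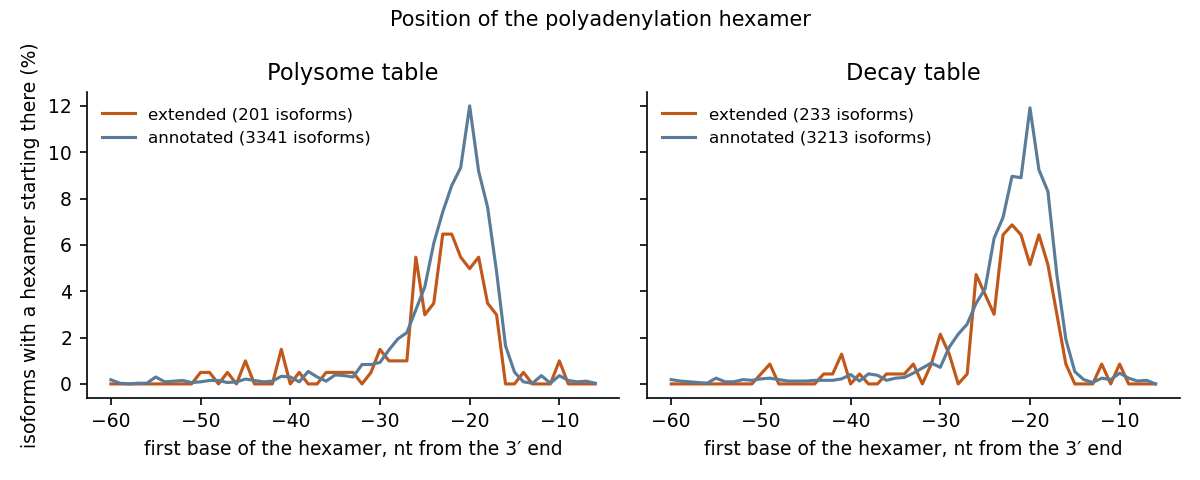
Share of isoforms (%) with AATAAA or ATTAAA starting at each distance from the 3′ end (nt), for extended and annotated isoforms with a 3′ UTR of at least 60 nt, in the polysome table (left) and the decay table (right). Both classes peak around 20 nt before the end, and the extended peak is the lower.

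The hexamer share depended on where the extended end lay. Where the start had no annotated isoform, 67.2% of extended isoforms held it in the polysome table (58.5 to 74.9, n = 122) and 66.2% in the decay table (58.0 to 73.5, n = 139). Beyond all annotated ends of the start it was held by 17 of 41 (41.5%, 27.8 to 56.6) and 18 of 45 (interval 27.0 to 54.5%). Before all annotated ends it was 24.2% (12.8 to 41.0, n = 33) and 35.9% (22.7 to 51.6, n = 39). The share did not fall with distance up to 800 nt: it was 55.0%, 53.3% and 55.6% in the polysome table for extensions of 101 to 200, 201 to 400 and 401 to 800 nt, and 56.9%, 59.4% and 58.8% in the decay table. It was 70.8% and 47.8% at 801 to 1600 nt, and 2 of 12 and 7 of 18 isoforms at 1601 to 5000 nt.

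Inside the extended UTRs, the position of the reference end seldom carried a hexamer. In isoforms whose UTR was longer than the extension, up to 40 nt before that position were searched. A hexamer was found in 19 of 146 cases in the polysome table (13.0%, 8.49 to 19.4) and 30 of 174 in the decay table (17.2%, 12.4 to 23.5). Where less than 40 nt of UTR preceded the extension, only that stretch was searched, which leaves less room for a hexamer. The most covered extended isoform, for instance, had a UTR of 284 nt and an extension of 277 nt. The extended ends of the isoforms searched held a hexamer in 53.4% and 55.7%. A hexamer at the extended end alone was found in 47.9% and 47.7%, at the reference position alone in 7.53% and 9.20%, at both in 5.48% and 8.05%, and at neither in 39.0% and 35.1%. For background, a 40-nt window at the middle of extensions of at least 120 nt held a hexamer in 2 of 165 isoforms (1.21%, 0.333 to 4.31) and 1 of 200 (0.500%, 0.0883 to 2.78). The middle of annotated UTRs held it in 0.887% and 1.48%.

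**Figure D3:**
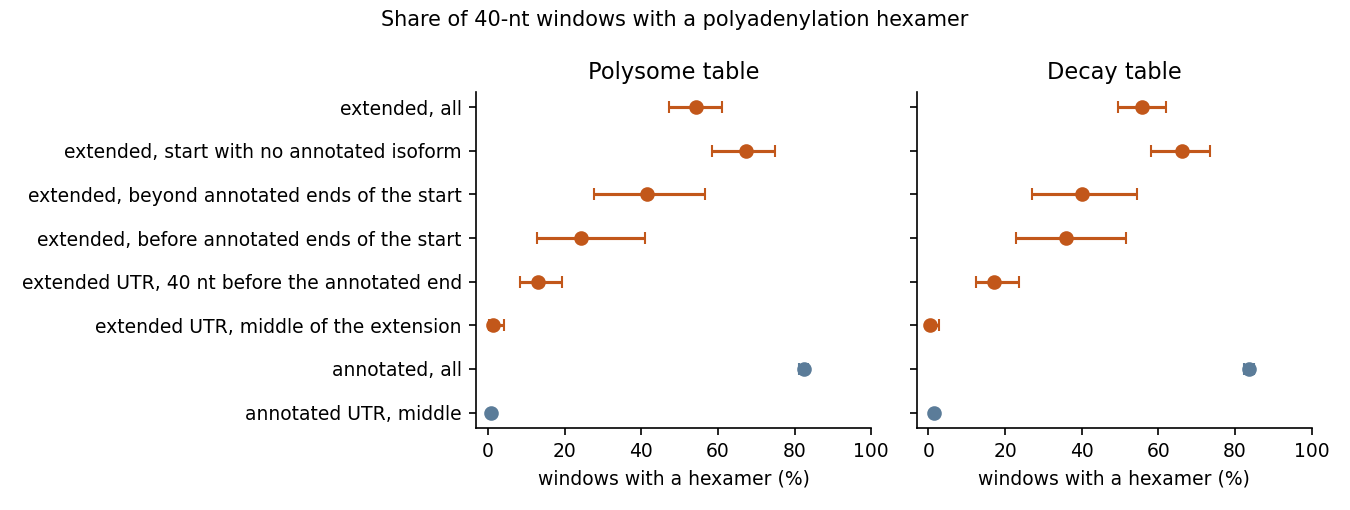
Share of windows of up to 40 nt (%) with AATAAA or ATTAAA, with 95% Wilson intervals, in the polysome table (left) and the decay table (right). Windows are shorter than 40 nt where less UTR was available. Extended ends (54.2% and 55.8%) lie between annotated ends (82.4% and 83.6%) and the reference position inside extended UTRs (13.0% and 17.2%), and the middles of extensions and of annotated UTRs lie below 2%.

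The added sequence was poorer in G and C than the UTR before it. The extension is the distal part of the UTR, and the distal part of annotated UTRs was not measured apart. Traits of extensions thus cannot be told from those of distal UTR sequence, for GC content and for the motifs below. In the polysome table the median GC content was 50.8% in the extension (50.0 to 51.8, n = 146), 54.4% in the UTR before it (53.7 to 55.6) and 52.3% in annotated UTRs. For the decay table it was 47.6% in the extension (45.9 to 48.7, n = 175), 53.0% in the UTR before it and 50.1% in annotated UTRs. AUUUA, the core of AU-rich elements that recruit decay factors, was searched on the transcript strand. It occurred 1.45 times per kb of extension, 0.718 per kb of the UTR before it and 0.839 per kb of annotated UTRs in the polysome table. Densities in the decay table were 1.58, 1.11 and 1.13 per kb. A heptamer matching the let-7 seed (CTACCTC) lay in the extension of 10 isoforms in each table and in the UTR before it of 2 and 1. Its density in the polysome table was 0.179 per kb of extension, 0.0435 per kb of the UTR before it and 0.106 per kb of annotated UTRs, and it was 0.133, 0.0170 and 0.0907 per kb in the decay table. The other motifs did not lie more often in the extension throughout. Seed matches of the muscle microRNA miR-1 (ACATTCC) lay in the extension of 2 isoforms and in the UTR before it of 2, in each table. Those of miR-133 (GGACCAA) lay in 4 extensions and 6 UTRs before them in the polysome table, and in 3 and 4 in the decay table. The Pumilio motif TGTANATA lay in 7 extensions and 8 UTRs before them in the polysome table, and in 11 and 8 in the decay table. In annotated UTRs the densities of miR-1, miR-133 and Pumilio matches were 0.0645, 0.0865 and 0.136 per kb in the polysome table, and 0.0629, 0.0641 and 0.144 per kb in the decay table. A match is a string of letters and shows no binding.

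At most shared starts the extended isoforms were the minor product. Their share was taken as extended coverage over extended plus annotated coverage at the exact 5′ end. The median over 99 starts of the polysome table was 7.22% (5.11 to 11.5), and over 101 starts of the decay table it was 8.57% (5.61 to 15.3). Leaving out isoforms without a 3′ UTR sequence, a choice made after seeing the data, raised the polysome median to 11.7%. The share was under 1% at 20 and 18 starts and over 50% at 19 and 20. Starts whose extended end lay beyond every annotated end had a median of 3.11% (n = 64) and 3.42% (n = 58). Starts whose extended end lay before every annotated end had 23.4% (n = 27) and 43.7% (n = 31).

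The highest shares among starts with a summed coverage of at least 100 were close to 95%. Snx21, a sorting nexin, had 594 extended and 31 annotated counts in the polysome table (95.04%, 93.0 to 96.5). Mamstr, a coactivator of the muscle factor MEF2, had 364 extended and 20 annotated counts there (94.8%, 92.1 to 96.6). An unnamed start at chr15:97682312 had 362 extended and 19 annotated counts (95.01%). Smim7 had 662 extended and 31 annotated counts in the decay table (95.5%, 93.7 to 96.8), and Aif1l, an actin-binding protein, had 2107 extended and 120 annotated counts (94.6%, 93.6 to 95.5). Unnamed starts at chr13:58550330 and chr14:21881632 followed there, at 93.5% and 92.7%. With truncated isoforms of the same start counted too, Smim7 had 69.8% and chr14:21881632 had 81.7%, while Aif1l and chr13:58550330 had no other class. In Snx21, Aif1l and the 3 unnamed starts the extended end lay before the annotated end, and in Mamstr and Smim7 it lay beyond it.

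Des reached 94.7% in the polysome table, but its main isoform is classed as truncated and stays out of this ratio. The 33 annotated counts in it were those of an isoform without a 3′ UTR sequence that spanned 187699 nt. Over all classes of that start the extended share was 1.17%. The lowest shares were at an unnamed start at chr2:26962223 in the polysome table, with 11 extended and 23796 annotated counts (0.0462%, 0.0258 to 0.0827), and at Acta1. Acta1 had 26 extended and 28327 annotated counts in the polysome table (0.0917%, 0.0626 to 0.134) and 28 and 42409 in the decay table (0.0660%, 0.0457 to 0.0953).

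Shares of the same start were compared between the assays. Over the 42 starts with a share in both tables Spearman's rho was 0.952, given as a description, since the points differ widely in depth. Both shares were under 10% at 25 starts. Of the other 17, 10 lay within 10 percentage points of each other, and 7 starts were over 50% in both tables. The shares differed by less than 1.5-fold at 23 of the 42 starts and by up to 4.83-fold, as at chr9:49710222. The counting intervals did not overlap at 16 of the 42 starts. That count was not made for starts of other classes, so whether it is usual between these assays is unknown. Rab11b held 455 extended and 52 annotated counts in the polysome table (89.7%, 86.8 to 92.1), and 1747 and 223 in the decay table (88.7%, 87.2 to 90.0). Dbn1, the actin-binding drebrin, had 84.0% (75.6 to 89.9) and 85.9% (81.6 to 89.3). Tmem38a had 30.1% (28.8 to 31.4) and 46.3% (44.9 to 47.7). The widest gap, 35.9 points, was at an unnamed start at chr9:49710222, with 39 extended and 377 annotated counts in the polysome table and 1177 and 1423 in the decay table. The libraries of each assay are pooled, so assay, mouse and library cannot be told apart.

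**Figure D4:**
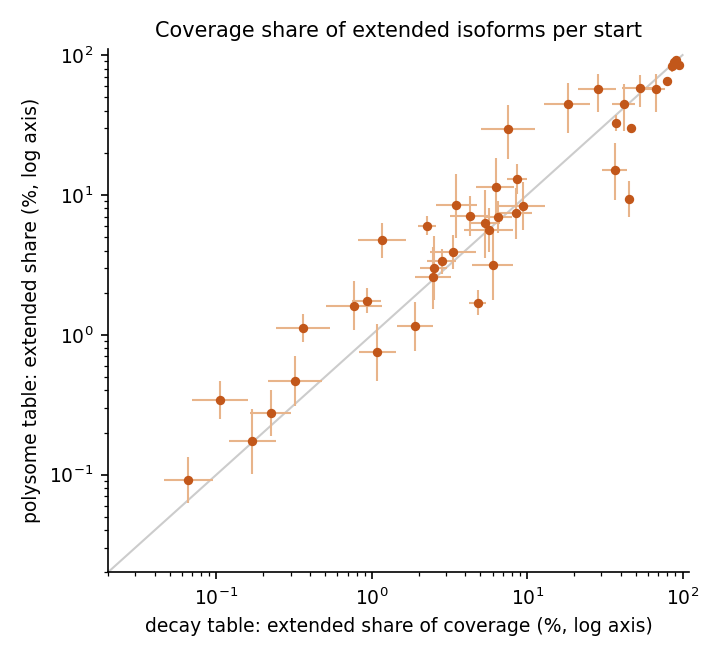
Share of extended coverage over extended plus annotated coverage (%, both axes log) at the 42 starts with a value in both tables, decay table on the x axis and polysome table on the y axis, with 95% Wilson intervals and the line of equality. The points run from below 0.1% at Acta1 to above 80% at Rab11b, Aif1l and Dbn1.

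Gene names were recovered for 118 extended isoforms in the polysome table and 119 in the decay table, mostly by matching the deposited 5′ UTR to RefSeq promoters, and the 111 symbols found included 61 present in both tables. Among genes with an extended isoform and a summed coverage of at least 100 in both tables (38 genes), the extended isoforms held over 50% of the gene's named coverage in both tables for 17 and in only 1 table for none. Cdc37, Coq8a, Timm17b, Ucp2, Nme1, Yipf3, Pomp, Fzr1, Tmem120b, Lrp10 and Mul1 had 100% in both. For these 11 genes every isoform that could be given the gene's name was extended, while isoforms with a truncated 5′ end often stayed unnamed.

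The most covered of them were Coq8a, Cdc37 and Yipf3 in both tables. Yipf3, a Golgi membrane protein, had 894 extended counts in the polysome table and 1604 in the decay table. Coq8a, an atypical kinase of coenzyme Q synthesis, had an extension of 404 nt at its main isoform, with 1303 counts in the polysome table and 3731 in the decay table. Timm17b, a subunit of the inner-membrane import channel, had an extension of 537 nt with 760 and 927 counts. Ucp2, an uncoupling carrier, had one of 709 nt with 476 and 475 counts. Ndufc1 had 71 extended counts in the polysome table and 1056 in the decay table. Genes for oxidative phosphorylation held an extended isoform in 4 of 43 listed genes in the polysome table (9.30%) and 5 of 48 in the decay table (10.4%): Cox19, Ndufc1, Sdha and Uqcr10 in both, and Atp5g3 in the decay table. Over all named genes 5.41% and 5.44% held one. Cdc37 had 1762 and 2696 counts, and an unnamed isoform at chr19:4206794-4213296, with an extension of 191 nt, had 470 and 721.

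In sarcomere genes extended isoforms were found in 4 of 16 listed genes in the polysome table (Acta1, Des, Mylpf and Tpm2) and 5 of 16 in the decay table (Acta1, Des, Tnnc1, Tnnt2 and Tpm2), at little coverage. They took 720 of 150167 counts of the list in the polysome table and 409 of 343632 in the decay table. Over all named genes they took 13861 of 909377 and 28127 of 1769040 counts, and 5.41% and 5.44% of genes held one. Des alone gave 594 of the 720 and 92 of the 409 counts, which include the long spans described above. An Acta1 isoform in each table spanned 966040 nt. In Tpm2, β-tropomyosin, they held 0.563% and 0.402% of the gene's named coverage, in Tnnc1, slow and cardiac troponin C, 0.777% in the decay table. Ribosomal protein genes with a symbol of Rpl or Rps followed by a digit had an extended isoform in 1 of 33 (Rpl13a, 12 counts) and 0 of 37. Rpsa, a ribosomal protein gene outside that list, had 26 extended counts in the polysome table and 41 in the decay table. These were 0.258% and 0.217% of its named coverage. Of genes for cleavage and polyadenylation factors, 1 and 2 were listed, with no extended isoform. Myotube markers were listed for 13 of 15 genes that the promoter table held. Of the 3 myoblast markers it held, Cdh15 was listed. It held 3 of 7 fibroblast, 2 of 4 endothelial, 3 of 5 macrophage and 1 of 3 Schwann cell markers. None of these was listed in either table, and the others could not be named. Only 49.8% of polysome-table and 48.6% of decay-table isoforms were named, so a marker that was not listed is not shown to be absent.

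The intervals of the extended and annotated medians overlapped for both TE and half-life. TE and half-life are the authors' scores, and the sources used here give neither formula nor unit. A coverage of at least 30 and a value above 0 were required. The median TE was 0.000691 for 84 extended isoforms (0.000581 to 0.000845) and 0.000752 for 2186 annotated ones (0.000735 to 0.000780). The median half-life was 10.4 for 191 extended isoforms (9.76 to 11.0) and 10.8 for 2868 annotated ones (10.7 to 11.0). At matched 3′ UTR lengths the medians differed in either direction. For UTRs up to 150 nt, TE was 0.00120 for 3 extended and 0.00103 for 555 annotated isoforms, and half-life 8.26 for 4 extended and 11.7 for 659 annotated isoforms. For UTRs up to 400 nt and over 150 nt, TE was 0.000934 for extended and 0.000864 for annotated isoforms, and half-life 10.7 for extended and 11.2 for annotated isoforms. At lengths over 400 nt and up to 800 nt, TE was 0.000641 for extended and 0.000666 for annotated isoforms, and half-life 10.6 for extended and 10.5 for annotated isoforms. At lengths over 800 nt and up to 1600 nt, TE was 0.000513 for extended and 0.000547 for annotated isoforms, and half-life 9.79 for extended and 9.88 for annotated isoforms. The longest UTRs had a TE of 0.000355 for 5 extended and 0.000375 for 82 annotated isoforms, and a half-life of 8.92 for 18 extended and 9.27 for 98 annotated isoforms. Among 47 extended isoforms with both scores the 2 scores had a Spearman's rho of 0.0037, as a description.

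Set against the most covered annotated isoform of the same start, the half-life ratio differed in sign between extended ends that lay beyond the annotated end and those that lay before it, while TE ratios were mixed. The difference between these sets was not tested. The division into extended ends beyond and before the annotated end was chosen after the values were seen. For half-life, 41 extended isoforms that ended beyond their annotated partner had a median log2 ratio, extended over annotated, of -0.25 (-0.44 to -0.08), with 30 below 0 and 11 above. The 36 that ended before it had a median of 0.15 (0.02 to 0.40), with 11 below 0 and 25 above. Of the 41, the 31 with a 3′ UTR sequence had a median of -0.29 and the 10 without one -0.14. The 41 had 40 distinct partners and the 36 had 31. For TE, 13 isoforms that ended beyond the partner had a median of -0.12 (-0.64 to 0.35), with 7 below 0 and 6 above. Of these, the 8 that ended less than 400 nt beyond had a median of 0.13, with 5 above 0. The 11 that ended before the partner had 0.19 (-0.08 to 0.91), with 2 below 0.

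These counts were read against every pair of nuclear isoforms of 1 start whose 3′ ends lay more than 100 nt apart, the farther end over the nearer. Among 669 such pairs of the decay table the median log2 half-life ratio was -0.14, the farther isoform was lower by at least 1.5-fold in 18.2% and higher in 10.6%. Of the 41 extended isoforms beyond their partner, 8 were lower and 5 higher by that much. Among 275 pairs of the polysome table the median log2 TE ratio was -0.39, with 30.5% lower and 2.55% higher by 1.5-fold. Of the 13 extended isoforms beyond their partner, 3 were lower and 0 higher. These 1.5-fold shares are near those of all pairs, which include the extended isoforms. By sign, the half-life ratio was below 0 in 392 of the 669 pairs and in 30 of the 41. The TE ratio was below 0 in 234 of the 275 pairs and in 7 of the 13. In isoforms that ended before their partner the extended end is the nearer one, so all pairs apply to them with the sign turned. Their median log2 ratio, extended over annotated, was 0.15 for half-life and 0.19 for TE. In all pairs the medians, farther over nearer, were -0.14 and -0.39. The ratio was above 0 in 25 of these 36 isoforms for half-life and in 9 of 11 for TE.

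**Figure D5:**
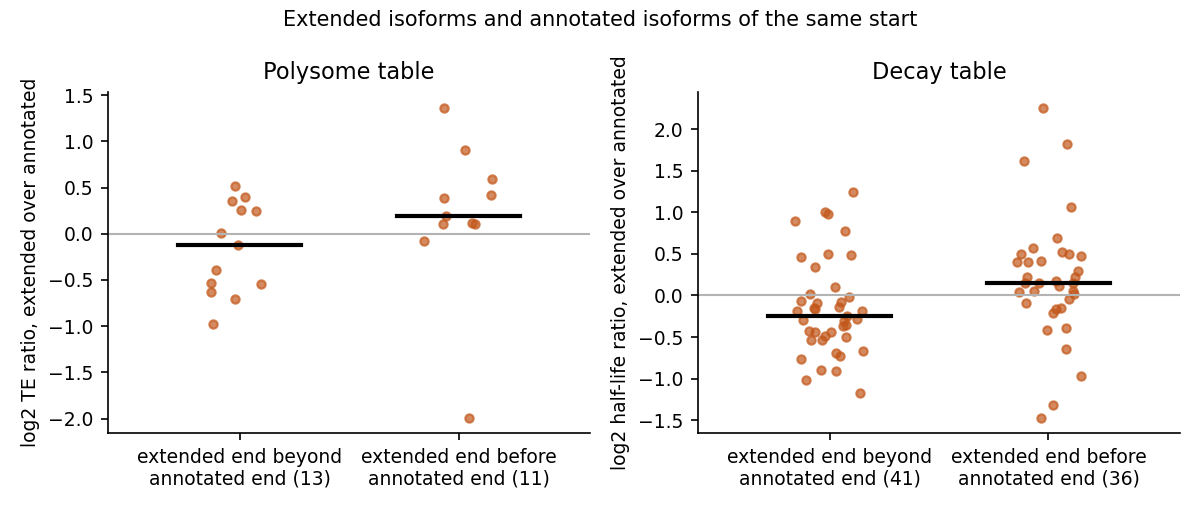
log2 ratio of TE (left, polysome table) and half-life (right, decay table) of each extended isoform over the most covered annotated isoform of the same start, by whether the extended end lies beyond or before the annotated end, with medians as bars. For half-life the medians are -0.25 beyond (41 pairs) and 0.15 before (36 pairs), and for TE -0.12 (13 pairs) and 0.19 (11 pairs), with wide overlap.

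Where both partners reached a coverage of 100, Oaz1 had the highest half-life ratio: 43.9 for the extended isoform (195 counts) and 12.4 for the annotated one (8414 counts), 3.54-fold. Its extended end lay 174 nt before the annotated end, and its TE was 0.000751 extended and 0.000696 annotated. Translation of Oaz1 needs a ribosomal frameshift, and the deposited 3′ UTRs, 386 nt extended and 369 nt annotated, do not begin at the same position. An unnamed isoform at chr7:142606524-142621202 followed, at 14.9 extended and 10.5 annotated, and then Aif1l at 11.9 extended and 8.96 annotated, each ending before its partner.

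The 3 lowest half-life ratios at that coverage were of isoforms that ended beyond their partner, and the next was of one that ended before it. At chr1:161068583-161078736, with 708 nt of 3′ UTR extended and 169 nt annotated, half-life was 12.1 extended and 20.6 annotated. Both ends of this unnamed gene carried a hexamer. Rab11b had 11.2 extended and 15.9 annotated, with 84 nt between the ends. An unnamed isoform at chr9:49426431-49710222 had 7.94 extended and 10.6 annotated (log2 ratio -0.42). Close to it was chr11:95557826-95570853, which ended 745 nt before its partner, at 10.2 extended and 13.6 annotated (log2 ratio -0.42).

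For TE the lowest ratio at a coverage of at least 100 was that of the same chromosome 1 end from a start at 161078732, 0.000581 extended and 0.000903 annotated (log2 ratio -0.64). Mea1 followed, at 0.000594 extended and 0.000857 annotated, with an end 138 nt beyond, and then an unnamed isoform at chr11:95557826-95570853, at 0.000915 extended and 0.000850 annotated, whose ratio was already above 1. The highest were an unnamed isoform on chromosome 18 (0.000787 extended, 0.000548 annotated), chr11:5738517-5750455 (0.000921 and 0.000689) and chr8:23629026-23638969 (0.000493 and 0.000377). The isoforms on chromosomes 11 and 8 ended before their partners. At coverage under 100 on the annotated side, Aif1l had a TE of 0.00109 extended and 0.000424 annotated, with an extended UTR of 849 nt and an annotated one of 2451 nt.

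The same pair was measured in both tables for 10 extended isoforms, and the signs of TE and half-life went together in 5 of them. Tmem38a (TE log2 ratio 0.19, half-life log2 ratio 0.15), Aif1l (1.37 and 0.40), Oaz1 (0.11 and 1.82) and chr11:5738517-5750455 (0.42 and 0.23) were above 0 in both, and all 4 ended before their partners. The other pair that ended before its partner, chr11:95557826-95570853, was above 0 for TE and below 0 for half-life (0.11 and -0.42). An isoform at chr3:89110235-89116163, which ended 175 nt beyond its partner, was below 0 in both (-0.12 and -0.70). Rab11b was above 0 for TE and below 0 for half-life (0.40 and -0.50), and an isoform at chr9:121606761-121615095, 2210 nt beyond its partner, was the reverse (-0.70 and 1.24), at 43 and 30 counts.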

How the data were processed

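TIF-seq2 reads of 18 libraries were processed by the authors on GRCm39 with STAR 2.5.3a, UMI-tools 0.5.4, bcl2fastq 2.20.0 and cutadapt 1.16, per the submitters' processing notes, which state no order or settings here. Each deposited table lists isoforms with a pooled coverage, which is a count, and a score (half-life for the decay samples, TE for the polysome samples). The authors' deposited scores come with no formula or unit. The columns hold 0 values of a single library, so no test between samples was made, and depth per library is unknown.

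Isoforms of the extended 3′ class on nuclear chromosomes were kept. Members, lists and comparisons were chosen with earlier results of these data known. Shares have 95% Wilson intervals, and medians have binomial order-statistic intervals over isoforms. TE, half-life and pairs used a coverage of at least 30. Hexamers were searched in the last 40 nt. The scripts were tested on simulated data.

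Named isoforms were the 8 most covered in both tables, the 3 longest and 3 shortest distances at a coverage of at least 30, the 4 highest and 2 lowest coverage shares, and the 3 highest and 3 lowest ratios of each table. A gene name came from the first 30 nt of the deposited 5′ UTR in RefSeq promoters (GRCm38.p6, used for names only). Matches of any 20 nt, of a shared start or start codon context, or of a shared stop codon context with starts within 5 kb were added after the data were seen. These 4 steps named 62, 25, 22 and 9 extended isoforms in the polysome table, and 67, 26, 16 and 10 in the decay table. Other genes in the text were chosen after their values were seen. Python 3.11.15, pandas 2.3.3, numpy 2.4.6, scipy 1.17.1 and matplotlib 3.10.9 were used.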

Additional observations from a re-analysis of the deposited data

Results flagged for a closer look

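Extended 3′ ends also occurred in classes that the comparisons above do not use, with no control samples to set them against. In the polysome table, 52 nuclear isoforms with both an extended 5′ and an extended 3′ end held a summed coverage of 1651, and 29 with a truncated 5′ and an extended 3′ end held 1693. In the decay table, 19 isoforms extended at both ends held 1223, and 21 with a truncated 5′ and an extended 3′ end held 2040. The polysome table listed 1 mitochondrial isoform of the extended 3′ class, with a coverage of 19.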

How the results depend on the processing

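Of 97 alternatives run on 20 results, 56 stayed within the interval of the reported value and 41 left it. The TE pair median of 0.11, whose interval included 0, was -0.26 with nested 3′ UTRs, -0.12 beyond and 0.19 before the partner. At a coverage of at least 30 the extended share of isoforms was 2.64% in the polysome table, its coverage share 1.602% (1.83% in the decay table) and its median distance 352 nt. At a coverage of at least 60 the share of isoforms was 2.40% in the polysome table and 3.22% in the decay table, the coverage share 1.54% and 1.77%, the decay table's median distance 310 nt and its hexamer share 63.3%, and the annotated hexamer share 84.3% in the polysome table. Counting distinct 3′ ends gave 5.62% and 5.69% of ends extended, and an annotated hexamer share of 81.0% in the polysome table. With AATAAA alone the hexamer shares were 40.3% extended and 67.6% annotated in the polysome table, and 39.5% and 68.6% in the decay table. With 12 variants they were 72.6% and 92.9%, and 75.1% and 93.7%, and before the reference end 21.2% and 25.3%. A window of 30 nt gave annotated shares of 79.0% and 80.3%. Annotated medians were 0.000798 for TE and 11.5 for half-life at a coverage of at least 100, 11.2 for half-life at 60 and 10.7 at 15. At 3′ UTR lengths within the extended isoforms' quartiles they were 0.000691 for TE and 10.6 for half-life. Nested 3′ UTRs gave a median log2 half-life ratio of -0.24.

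Chosen after seeing the data were these alternatives. Spans of at most 100 kb gave 3.08% of isoforms in the polysome table, 1.63% and 1.80% of coverage, and a median distance of 370 nt. Isoforms with a 3′ UTR sequence gave a median of 317 nt and a median coverage share of 11.7% in the polysome table. The log2 half-life ratio over all 77 pairs was -0.06 (-0.18 to 0.11), and it was -0.25 beyond and 0.15 before the partner. The cause of these shifts was not tested. No paired analysis was possible because the tables hold no values per mouse. Leaving out a mouse was not run for that reason. The lowest coverage listed, 11 and 21 counts, limits which extended isoforms could be seen.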
